A study of Danio rerio with 5 samples.

Results

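Zebrafish exposed to formaldehyde were compared with zebrafish exposed to the aromatic solvents benzene and toluene. Each compound had 1 Affymetrix 3′ expression array, 3 of the 5 arrays of the series; the other arrays held fish exposed to the vehicle DMSO alone and fish exposed to a mixture of benzene, toluene and formaldehyde, called the BTF mix. All fish, those given DMSO included, were wild-type young adults (line AB), were exposed for 24 h and went unfed, and the compounds had been prepared in DMSO. Neither dose, tissue nor the number of fish per array is stated in the labels, and the sex entry of the labels is the same for every array and names neither males nor females. A probe set was counted as apart when its formaldehyde value lay at least 1 log2 unit (2-fold) above the higher, or below the lower, of the benzene and toluene values. Of 15502 probe sets, 9716 had a highest value over the 5 arrays of 7.02 or more, which is the table's median, and 339 of these were apart. With 1 array for each condition there is no replicate check and no test, and since the doses are unknown the 3 arrays can only be laid side by side.

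Benzene and toluene are aromatic hydrocarbons that differ by a methyl group and that cytochrome P450 enzymes oxidise before they are conjugated and excreted. Formaldehyde is a reactive one-carbon aldehyde that cross-links proteins and DNA; cells bind it to glutathione and oxidise it through the enzyme made from adh5, and other aldehyde dehydrogenases share in the task. In fish, gill, skin and gut face the water directly, while the exocrine pancreas, the tissue that makes the enzymes of digestion, lies scattered along the gut.

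The formaldehyde array differed from both solvents mostly downwards. Of 9716 probe sets, 293 (3.02%) were at least 2-fold below both solvents and 46 (0.473%) were at least 2-fold above both, so that 86.4% of those apart were lower. At 1.5-fold the counts were 548 below both and 214 above both. By any margin, large or small, formaldehyde lay below both solvents on 3511 probe sets, above both on 3576 and between them on 2629. When the same rule was turned, benzene was 2-fold below both others on 42 probe sets (0.432%) and above both on 30 (0.309%), and toluene was below both on 23 (0.237%) and above both on 35 (0.36%). Over the 9716 probe sets the correlation was 0.983 between benzene and toluene, 0.952 between formaldehyde and benzene and 0.957 between formaldehyde and toluene. The points share the arrays and their normalisation.

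Taken singly, formaldehyde was at least 2-fold below benzene on 386 probe sets (3.97%) and above it on 128 (1.32%). Against toluene it was below on 365 (3.76%) and above on 121 (1.25%). The solvents differed from each other less often, with toluene 2-fold below benzene on 71 probe sets (0.731%) and above it on 101 (1.04%).

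The size of the differences was also unequal. Among the 293 lower probe sets the distance to the nearer solvent had a median of -1.52 log2 units, 90 reached 2 units and 43 reached 3 units, whereas the 46 higher ones had a median distance of 1.24 and only 3 reached 2 units. The lower probe sets with 1 gene symbol numbered 240 and covered 221 genes; with each gene represented by its probe set of highest mean, 217 of 6682 genes (3.25%) were lower and 24 (0.359%) higher. The solvents were farther apart on the members than elsewhere. The median absolute difference of benzene and toluene was 0.24 on the lower probe sets and 0.30 on the higher ones, against 0.10 on all probe sets past the level filter. The members were chosen for their distance, so these counts are a description of the 3 arrays.

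**Figure D1:**
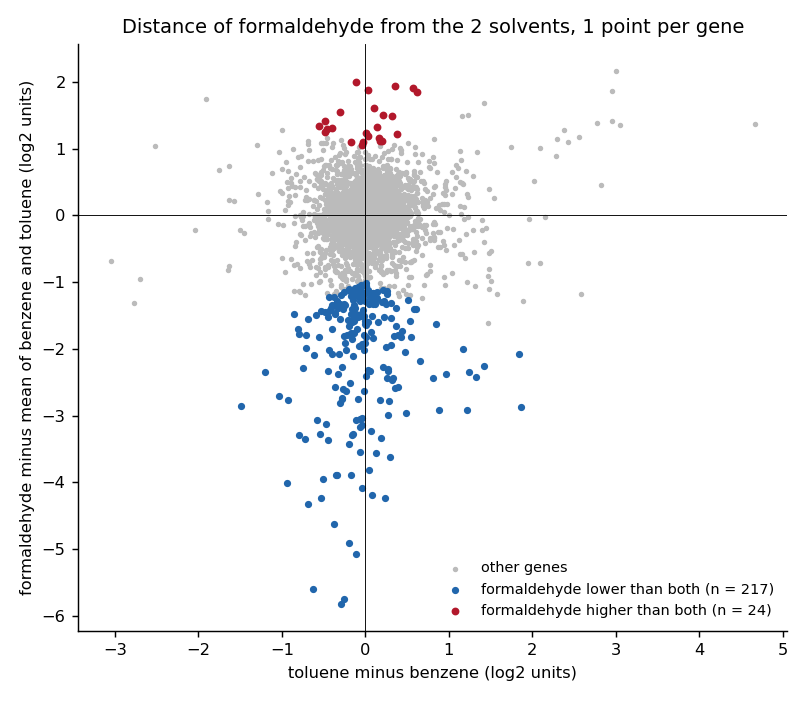
Each point is 1 of 6682 genes, with toluene minus benzene on the horizontal axis and formaldehyde minus the mean of both solvents on the vertical axis, in log2 units. The 217 genes lower with formaldehyde (blue) reach much farther from 0 than the 24 higher ones (red), and most points of either colour lie near the vertical line where the solvents are equal.

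Among genes with a usual name, those of the exocrine pancreas had the largest distances. The longest distance of all, -5.68, was that of si:ch211-240l19.8, a gene named here after its value was seen. The chymotrypsinogen ctrb.1 had a log2 level of 13.91 with benzene, 13.65 with toluene and only 8.03 with formaldehyde, beside 12.63 with DMSO and 14.32 with the mix. Formaldehyde was thus the low array, 5.62 log2 units or 49.3-fold below the nearer solvent. The carboxypeptidase cpa5 had 12.70 with benzene, 12.06 with toluene, 6.79 with formaldehyde, 10.93 with DMSO and 13.41 with the mix, a distance of -5.28. The elastase ela2 had 13.15, 13.04, 8.02, 11.49 and 14.03 in the same order, a distance of -5.02. In these genes the array order was the same: formaldehyde lowest, then DMSO, then toluene, benzene and the mix.

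All 14 digestive protease genes that were measured passed the level filter, and all 14 were at least 2-fold below both solvents, where 3.25% of all genes were; the rule used this same contrast, so nothing is read from the difference in share. Their median difference between formaldehyde and the mean of the solvents was -3.92, where the median of all 6682 genes was 0.01. The shortest distances in the list were those of the elastases cela1.1 at -1.91 and cela1.5 at -2.11 and of cpa4 at -2.13, while cela1.6 lay at -4.81, cpa1 at -4.43, ela3l at -3.97, the chymotrypsin-like ctrl at -3.80, ela2l at -3.72 and the trypsin prss1 at -3.70. Benzene was above toluene on all 14. Elastases and chymotrypsins are families of similar sequence, so a probe set can bind transcripts of a relative. Since each array holds the RNA of many cells, fewer cells of a type and less RNA per cell cannot be told apart here or in any result that follows.

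Other products of the acinar cell were also lower with formaldehyde than with both solvents. The bile salt-activated lipase cel.1 was at 11.82 with benzene, 11.14 with toluene, at 7.16 with formaldehyde and at 10.06 with DMSO, a distance of -3.98. The starch-digesting amylase amy2a lay at -3.13, the phospholipase pla2g1b at -2.66, and the zymogen granule genes sycn.2 and cuzd1.1 at -2.21 and -1.82. Of 6 genes past the filter 5 were apart, where 3.25% of all genes were lower, and the other, amy2al1, lay at -0.20. On cuzd1.1 the DMSO, benzene and toluene arrays had the same level, 9.28, formaldehyde had 7.45 and the mix had 11.76, so formaldehyde lay below and the mix above 3 near-equal arrays.

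Endocrine pancreas genes mostly lay nearer to the solvents than the exocrine genes above, though the exocrine amy2al1 was nearer to them than ins, sst1.1 and sst2. The median levels of the islet list were 7.03 with benzene, 6.87 with toluene and 6.40 with formaldehyde, near or under the filter level of 7.02. Those of the protease list were 12.67, 12.27 and 8.02. The part of the lower level in these distances was not tested. Insulin, ins, had 8.14 with benzene, 8.05 with toluene and 6.89 with formaldehyde, a distance of -1.16. The somatostatins sst1.1 and sst2 lay at -0.83 and -0.52, glucagon gcga at -0.18 and the neuroendocrine chaperone gene scg5 at -0.05, so 1 of 5 genes past the filter was apart. Of 39 genes for the translocation and folding of secreted proteins 0 were apart, and their median difference was 0.15. That count is near the 3.25% lower and 0.359% higher of all genes. Every cell that secretes protein uses the translocation and folding genes.

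Skin genes were also among the members. Of 26 genes for epidermal keratins and the outer envelope, in 19 formaldehyde lay 2-fold or more below both solvents and in 0 above both. Over all genes the shares were 3.25% and 0.359%. The rule used this same contrast, so nothing is read from the difference in share, here or in the other lists and families. The median difference of the 26 genes was -1.88. The keratin krt91 had 11.87 with benzene, 11.84 with toluene, 7.77 with formaldehyde, 10.61 with DMSO and 13.42 with the mix, a distance of -4.07, and its other probe set gave -4.45. Formaldehyde was the low array and the solvents were nearly equal. The keratins krt5, krt4 and krt15 lay at -3.19, -3.02 and -3.01. The ictacalcins icn2 and icn, small calcium-binding proteins of fish skin, lay at -3.50 and -3.24 on the probe sets of highest mean and at -2.64 and -2.30 on their other ones.

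Not every keratin was apart to the same degree. By name, 14 keratin genes passed the filter, a family picked after the values were seen. Of these 9 were apart and lower, from krt91 to krt94 at -1.49, where 3.25% of all genes were lower. The other 5 were below both solvents by less, among them krt18b at -0.84, krt18a.1 at -0.54 and krt95 at -0.12. The basal layer regulator tp63 had 7.53 with benzene, 7.59 with toluene and 6.33 with formaldehyde, a distance of -1.20. The annexins anxa1b, anxa1a, anxa1c and anxa2a, which bind membranes in the presence of calcium, lay at -2.77, -2.62, -2.01 and -1.92, while anxa5b was at -0.01, anxa13 between the solvents and anxa6 at 0.16.

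Genes of epithelial junctions were split. Of 30, 11 were lower and 0 higher, beside 3.25% and 0.359% of all genes, with a median difference of -0.80. The tight junction claudin cldni had 9.10 with benzene, 9.15 with toluene, 5.31 with formaldehyde and 7.07 with DMSO, a distance of -3.79, and cldnb and cldn23.1 lay at -2.30 and -2.04. The annexin partner s100a10b lay at -3.02, the desmosome genes pkp3a and dspa at -1.81 and -1.79, and the protease capn9 at -1.90. In the list 7 genes lay above both solvents, among them the adhesion genes cdh1 at 0.19 and f11r.1 at 0.07 and the claudins cldnd and cldng at 0.14 and 0.16. On cldnd and cldng the mix was the lowest array, with 7.64 and 7.78 against 14.33 and 14.17 with DMSO. On cldni, cldnb and cldn23.1 the mix was the highest array, and cldn23.1 passed the level filter only through its mix value. The adhesion gene epcam was between the solvents, and the plakoglobin gene jupa lay at -0.68.

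Mucus and ion transport genes were lower as well. The gel-forming mucin muc5.1 had 9.16 with benzene, 8.69 with toluene, 5.80 with formaldehyde and 6.86 with DMSO, a distance of -2.89, with -1.42 on its other probe set. The carbonic anhydrase ca2 lay at -1.21, the mucus cell gene agr2 at -1.17 and the sodium pump subunit atp1b1a at -1.12. By any margin all 9 genes of the list were below both solvents, beside 3511 of all 9716 probe sets. Of the 9 genes 4 were apart, where 3.25% of all genes were lower by the rule.

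Intestine genes included carriers of lipids and chitin-digesting enzymes. Of 26 enterocyte genes 10 were lower and 0 higher, beside 3.25% and 0.359% of all genes. The median difference was -1.03, and -0.57 against benzene alone. The chitinase chia.1 had 12.01 with benzene, 12.29 with toluene, 9.36 with formaldehyde and 11.38 with DMSO, a distance of -2.65. The fatty acid-binding protein fabp2 had 9.80 with benzene, 11.02 with toluene and 7.49 with formaldehyde, a distance of -2.31. Here the solvents were further apart, and toluene was the higher solvent on 8 of the 10 members, while benzene was the higher one on all 14 proteases. The retinol-binding rbp2a lay at -1.63, the bile acid-binding fabp6 at -1.61, the cadherin cdh17 at -1.52 and the microvillus protein gene vil1 at -1.02. In contrast the brush border phosphatase alpi.2 lay at -0.37, the peptide transporter slc15a1b at -0.41, and chia.4 and chia.6 at 0.05 and 0.13. On chia.4 the mix was the lowest array, with 4.73 against 12.70 with DMSO, while on chia.1 and chia.6 it was the highest. The nearer solvent for alpi.2 was benzene at 5.56, while toluene had 7.03 and formaldehyde 5.18.

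Genes of antigen presentation on class II MHC were lower with formaldehyde. The class II gene mhc2daa had 8.22 with benzene, 8.71 with toluene, 5.51 with formaldehyde, 8.42 with DMSO and 10.25 with the mix. Formaldehyde was the low array, and DMSO lay between the solvents. The distance was -2.71, and the invariant chain genes cd74b and cd74a, which guide class II molecules to their peptides, lay at -2.52 and -2.30. The cathepsin ctss2.1 was between the solvents, so 3 of 4 genes of the list were apart, where 3.25% of all genes were lower. On class I the light chain b2m lay at -1.72 and the proteasome activators psme1 and psme2 at -1.27 and -1.22, and the immune proteasome genes psmb8a and psmb9a were between the solvents.

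Phagocyte genes were partly apart, where 3.25% of all genes were lower by the rule. Of 14 neutrophil list genes 6 were lower, with a median difference of -1.11, but 2 of these, cpa5 and s100a10b, are those given above with the pancreas and the junctions. The antibacterial lysozyme lyz lay at -1.51, the collagenase mmp13a at -1.30, the granule proteoglycan srgn at -1.23 and the actin-binding coro1a at -1.05, against 0.08 for the myeloperoxidase mpx, and mmp9 was between the solvents. Of 16 macrophage genes 5 were lower, with apoeb, a lipid carrier also made in other cells, at -2.39, the growth factor gene grna at -1.77 and the lysosomal laptm5 at -1.40. The scavenger receptor gene marco lay at -0.45.

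Matrix and blood genes had some members. Of 22 collagen and matrix genes 7 were lower and 0 higher, beside 3.25% and 0.359% of all genes. The median difference was -0.38, and -0.13 with no level filter. The collagen-binding sparc had 8.66 with benzene, 8.93 with toluene and 6.46 with formaldehyde, a distance of -2.20. The collagen genes col1a1a and col1a2 lay at -1.60 and -1.20 and postnb at -1.51, with -0.47 on the other probe set of postnb. The cartilage genes matn1 and col9a2 lay at 0.19 and 0.33. Of 17 red cell and haem genes 2 were lower, the carbonic anhydrase cahz at -1.85 and the haem synthesis enzyme alas1 at -1.19. The other 15 included the adult globin hbaa1 at -0.98 and the mitochondrial iron carrier slc25a37 at 0.69, 5 of the 17 lay above both solvents, and the median difference was -0.08.

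Heart and egg yolk genes added a few. The cardiac myosin light chain myl7 had 7.91 with benzene, 8.27 with toluene, 6.43 with formaldehyde and 7.58 with DMSO, a distance of -1.48. Another cardiac light chain, cmlc1, lay at -1.42. These were 2 of 4 heart genes past the filter, where 3.25% of all genes were lower by the rule. The troponin tnnt2a and the myosin myh7 lay at -0.12 and -0.04, and the list median of -0.85 was -0.17 with no level filter. The vitellogenins, yolk precursors that the liver makes under oestrogen, were all 3 apart. The level of vtg2 was 14.21 with benzene, 14.09 with toluene, 12.76 with formaldehyde, 14.08 with DMSO and 5.96 with the mix, a distance of -1.33, and vtg3 and vtg4 lay at -2.27 and -2.03. All 3 were lower still with the mix than with formaldehyde. The protease lgmn was the fourth of 7 genes of the oestrogen list that was apart, at -1.02. In the egg coat and oocyte list 0 of 22 genes were apart, near the 3.25% lower and 0.359% higher of all genes. The median difference of that list was 0.08.

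**Figure D2:**
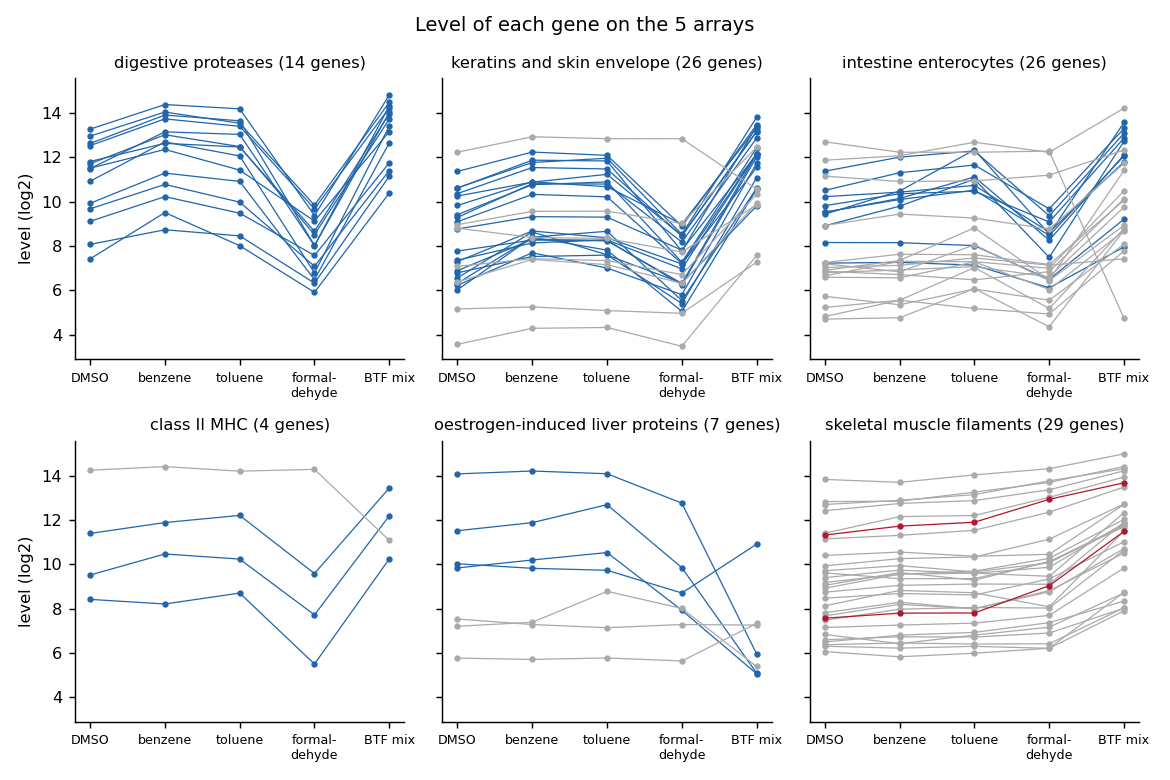
Log2 level on each of the 5 arrays for every gene past the level filter in 6 lists; each line is 1 gene, blue where formaldehyde was at least 2-fold below both solvents, red where it was at least 2-fold above both, grey otherwise. All 14 protease lines and all 26 skin lines lie below both solvents at formaldehyde, 14 and 19 of them by at least 2-fold. All 29 muscle lines are highest on the mix array and the 3 vitellogenins lowest there.

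Of the 217 lower genes, 109 were on at least 1 of the 44 lists and 108 on none. The prostaglandin D2 synthase-like lipocalin ptgdsb.1 had 11.76 with benzene, 11.99 with toluene, 7.64 with formaldehyde, 9.86 with DMSO and 13.06 with the mix, a distance of -4.12. The water and glycerol channel aqp3a lay at -3.71 and the actin-sequestering thymosin tmsb1 at -3.52. On all of these formaldehyde was the lowest of the 5 arrays. Others named by their distance after the values were seen were the ependymin epd at -3.14, the astacin protease c6ast3 at -3.12, the chemokines ccl25b and cxcl12a at -2.46 and -1.68 and the desmosomal perp at -2.16.

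Regulators of actin filaments, a group picked by name after the values were seen, included genes on the lists and off them. Of 29 measured past the filter, 12 were apart and lower and 0 were higher, beside 3.25% and 0.359% of all genes. The median difference was -0.42, and pfn1 and coro1a among the 12 are also on a list. The 12 included the filament-capping capgb at -2.31, the calponin-like tagln2 at -1.69, the Arp2/3 complex subunits arpc5a and arpc1b at -1.52 and -1.48 and tmsb4x at -1.40. Related genes lay nearer the solvents, with arpc5b at -0.32, arpc1a at -0.16 and tmsb5 at 0.03. On tmsb5 the mix was the lowest array, with 6.22 against 13.36 with DMSO, while on arpc5b and arpc1a it was the highest.

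Among transcription factors and signalling genes of the stress hormone and immediate early list, 5 of 35 were lower and 0 higher. Over all genes the shares were 3.25% and 0.359%, and the median difference of the list was -0.17. The factor klf2a had 7.44 with benzene, 8.68 with toluene, 5.71 with formaldehyde and 6.24 with DMSO, a distance of -1.73. The liver and fat regulator cebpa lay at -1.65, gadd45ba at -1.38, the cytokine signalling inhibitor socs3a at -1.11 and jun at -1.02, with -0.22 on the other probe set of jun. On gadd45ba formaldehyde had 6.92 and DMSO 7.09, and on socs3a they had 6.89 and 6.71, with both solvents higher. In the list for inflammation and acute phase 11 of 20 genes lay above both solvents and 5 below, with a median difference of 0.35. By any margin 3576 of all 9716 probe sets lay above both and 3511 below. The 3 genes of this list apart were all lower, beside 3.25% of all genes: socs3a, the complement protease cfd at -2.997 and the mannose-binding lectin mbl2 at -1.91. The glucocorticoid targets fkbp5 and klf9 were between the solvents.

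Antioxidant genes included 3 members of 35, all lower, beside 3.25% of all genes. The list median was -0.09. The peroxiredoxin prdx5 had 9.89 with benzene, 9.58 with toluene and 8.19 with formaldehyde, a distance of -1.40, and the selenium carrier selenop lay at -1.12. The quinone reductase nqo1, a target of both Nrf2 and the aryl hydrocarbon receptor, had 8.79 with benzene, 8.36 with toluene, 7.36 with formaldehyde and 7.29 with DMSO. It was barely past the threshold, and the formaldehyde and DMSO levels were nearly equal. Glutathione synthesis genes gclc and gclm lay at -0.03 and -0.01.

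The 24 genes higher with formaldehyde were more mixed. The vitamin D-inactivating enzyme cyp24a1 had 6.27 with benzene, 6.30 with toluene, 8.16 with formaldehyde, 6.77 with DMSO and 10.99 with the mix, a distance of 1.86, but 0.45 on its other probe set. The cytochrome P450 gene cyp2k6 had 6.07, 6.43, 8.20, 6.22 and 5.12 in the same order, a distance of 1.76. On cyp2k6 formaldehyde was the highest of the 5 arrays, and on cyp24a1 the mix was.

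On some higher genes the DMSO array was near formaldehyde or above it. The nuclear import receptor tnpo2a had 6.58 with benzene, 7.20 with toluene, 8.74 with formaldehyde and 9.70 with DMSO, a distance of 1.54, and the DNA end resection factor rbbp8 lay at 1.63 with a DMSO level of 7.29. In tnpo2a the solvents stood below both other arrays. On il13ra2, a receptor for interleukin 13, DMSO lay with the solvents: 9.14 with benzene, 9.35 with toluene, 10.74 with formaldehyde and 9.36 with DMSO.

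Liver genes lay mostly above both solvents, by small distances. Of 33 plasma protein genes 28 lay above both solvents and 2 below, beside 3576 and 3511 of all 9716 probe sets. The median difference was 0.47, but apom, a lipid carrier, was the 1 gene past the upper threshold, at 1.07. Over all genes 0.359% were 2-fold higher. The lipid carriers apoeb and apoea were lower, at -2.39 and -1.54. The antithrombin serpinc1 at 0.98, the copper carrier cp at 0.92 and the haem carrier hpxa at 0.78 came next. Of 25 genes of liver metabolism 14 lay above both solvents, and the tyrosine-degrading tat had 7.27 with benzene, 7.38 with toluene and 8.94 with formaldehyde, a distance of 1.56. The urea cycle enzyme ass1 was lower, at -1.17. The unlisted gamt, which makes creatine, and upp2, a uridine phosphorylase, lay at 1.09 and 1.25.

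Muscle filament genes also lay mostly above both solvents. Of 29, 22 lay above both solvents and 3 below, beside 3576 and 3511 of all 9716 probe sets. The median difference was 0.55, and 2 genes were apart and higher, where 0.359% of all genes were. The fast myosin-binding mybpc2b had 7.80 with benzene, 7.81 with toluene, 9.04 with formaldehyde and 7.57 with DMSO, a distance of 1.23, and the fast troponin C tnnc2.2 lay at 1.03. The troponin tnni2a.3 and the tropomyosin tpma lay at 0.82 each, and myl13 was lowest at -0.63. In the list for muscle calcium and energy 0 of 26 were apart, near the 3.25% lower and 0.359% higher of all genes. The calcium pump atp2a1l was at 0.99 and the parvalbumins pvalb4 and pvalb1 at 0.88 and 0.77, and the oxygen-binding mb was at -0.65.

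Lens crystallins, a family picked after the values were seen, had 4 of 10 genes past the threshold, all 4 higher. Over all genes 0.359% were 2-fold higher. By any margin 8 of the 10 crystallins lay above both solvents, beside 3576 of all 9716 probe sets. In the list of photoreceptor and lens genes, which holds 3 of these 10, 0 of 13 were apart, 3 lay above both solvents and 6 below, and the median difference was -0.12. The gamma crystallin crygm2f had 8.54 with benzene, 8.24 with toluene, 9.94 with formaldehyde, 8.66 with DMSO and 11.31 with the mix. The genes crygs1, crygm6 and crygm2c lay at 1.11, 1.04 and 1.01. The alpha crystallins cryaa and cryaba lay at -0.32 and -0.44. These genes are near-identical in part, and a probe set can bind several.

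**Figure D3:**
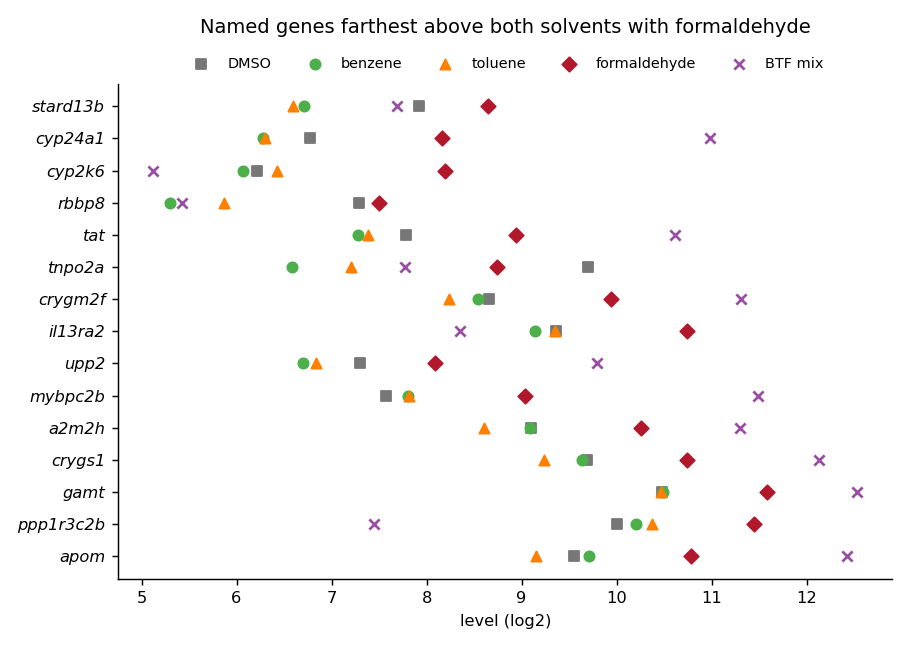
Log2 level on the 5 arrays for the 15 named genes farthest above both solvents with formaldehyde. Formaldehyde (diamonds) lies right of benzene (circles) and toluene (triangles) in every row, and DMSO (squares) lies near formaldehyde on rbbp8 and beyond it on tnpo2a.

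The 3 probe sets with the largest distance upwards, at 3.12, 2.62 and 2.52, have no gene symbol in the platform annotation. The first had 5.62 with benzene, 7.33 with toluene, 10.45 with formaldehyde, 5.75 with DMSO and 6.05 with the mix, so formaldehyde alone was high. Of the 46 higher probe sets 58.7% had 1 symbol, against 81.9% of the lower ones and 79.4% of all probe sets past the filter.

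Genes of formaldehyde clearance lay on both sides of the solvents. Of 23 genes for aldehyde oxidation and one-carbon metabolism 0 were apart, a count near the 3.25% lower and 0.359% higher of all genes, 7 lay below both solvents and 7 above, and the median difference was -0.00. The glutathione-dependent formaldehyde dehydrogenase adh5 had 10.71 with benzene, 10.70 with toluene, 10.61 with formaldehyde and 10.78 with DMSO. The hydrolase esd, which completes that route, had 9.60, 9.61, 9.91 and 9.24 in the same order. On adh5 formaldehyde was the lowest of these arrays and -0.17 from DMSO, while on esd it was the highest. The mitochondrial aldh2.2 lay between the solvents, aldh6a1 at 0.35, and aldh18a1, a proline synthesis enzyme, was lowest at -0.52.

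In the lists for DNA crosslink repair, DNA damage, heat shock and endoplasmic reticulum stress at most 1 gene each was apart, which at their size is near the shares over all genes, 3.25% lower and 0.359% higher. Of 18 DNA crosslink repair genes 0 were apart, with distances from -0.12 for the translesion polymerase rev3l to 0.42 for the Fanconi gene fancl. Of 32 heat shock genes 0 were apart, with a median of -0.08 and a range from hsp90aa1.2 at -0.56 to hspa4a at 0.22. Of 18 DNA damage response genes 1 was apart, gadd45ba, and of 13 endoplasmic reticulum stress genes 0. In the list for the aryl hydrocarbon receptor and foreign compound enzymes nqo1 and cyp2k6 were the 2 members of 15, in opposite directions, and the receptor target cyp1a lay at -0.26.

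Abundant housekeeping lists lay close on the 3 arrays. The median difference was -0.02 for 63 cytoplasmic ribosome genes, 0.00 for 33 proteasome genes and 0.02 for 61 respiratory chain genes, and the only genes apart in these lists were 2 of the respiratory chain, cox4i1l at -1.17 and cox6b1 at -1.08, a share near the 3.25% of all genes.

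**Figure D4:**
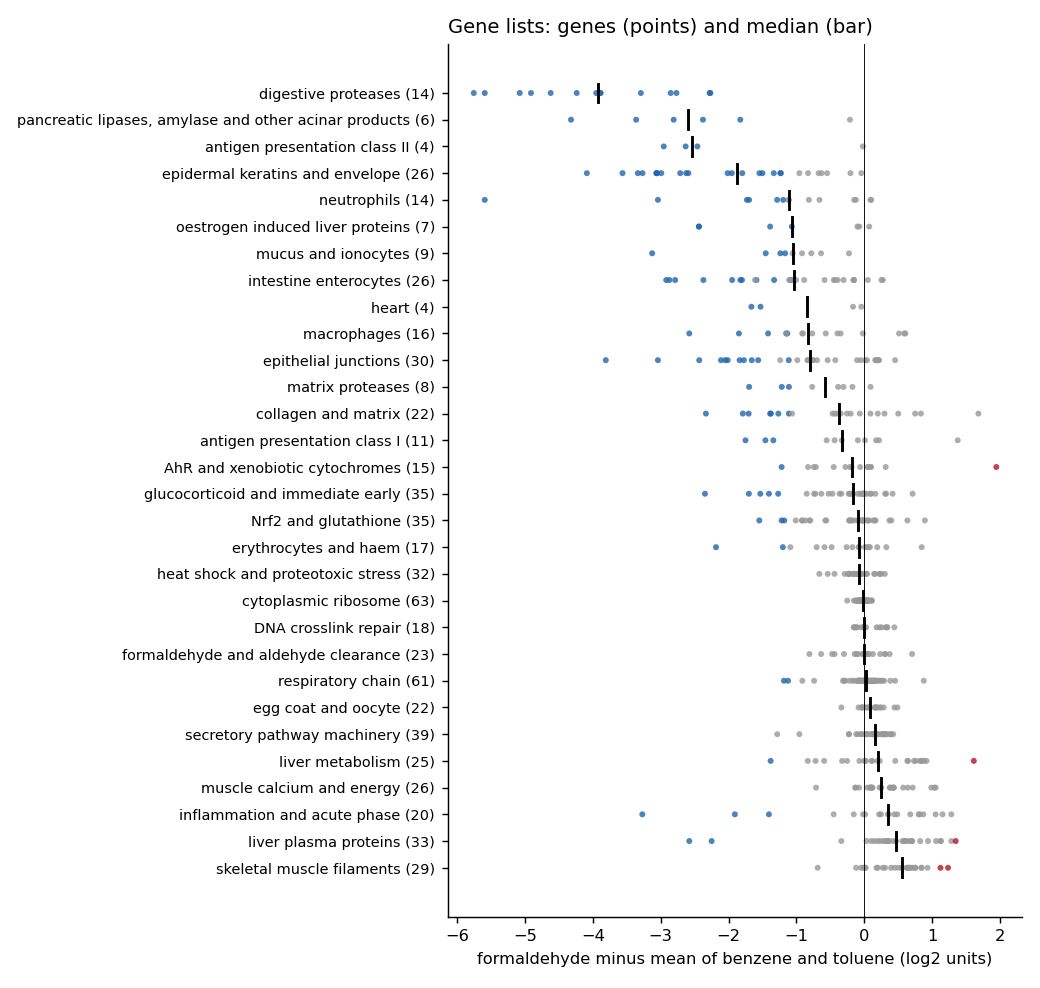
Formaldehyde minus the mean of benzene and toluene, in log2 units, for genes past the level filter (points, number in brackets), with the list median as a bar. Of the 44 lists 30 are plotted, most of them chosen because several of their genes were apart and some added by hand. Lists with few or no genes apart were mostly left out. Blue genes were at least 2-fold below both solvents and red ones at least 2-fold above both; the digestive protease and skin lists sit left of 0 with medians of -3.92 and -1.88, and the skeletal muscle filament and liver plasma protein lists slightly right of it with 0.55 and 0.47.

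The DMSO array was left out of the difference that chose the members, but its value entered the level filter. Among the 293 lower probe sets DMSO lay between formaldehyde and both solvents on 249, or 85.0%, at or below formaldehyde on 10, within the range of the solvents on 21 and above both on 13. For the 3218 probe sets where formaldehyde was below both solvents by less than 1 unit, the share with DMSO between was 24.7%. A wide gap leaves more room for any further array to fall inside it. Formaldehyde was at least 2-fold below DMSO on 149 of the 293, both solvents were at least 2-fold above DMSO on 83, both held on 38 and neither on 99. The median of DMSO minus formaldehyde was 1.01 and that of the solvent mean minus DMSO was 0.80.

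The gene groups differed in how DMSO divided the distance. All 14 lower protease genes were at least 2-fold below DMSO with formaldehyde, and on 3 of them both solvents were also at least 2-fold above DMSO. Of the 19 lower skin genes, 10 were 2-fold below DMSO with formaldehyde and on 11 both solvents were 2-fold above DMSO. Of the 10 lower intestine genes these counts were 7 and 1, of the 4 lower genes of the oestrogen list 4 and 0, and of the 3 class II genes 3 and 0. Of the 5 stress hormone and immediate early genes they were 0 and 3. These differences between lists were not tested.

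**Figure D5:**
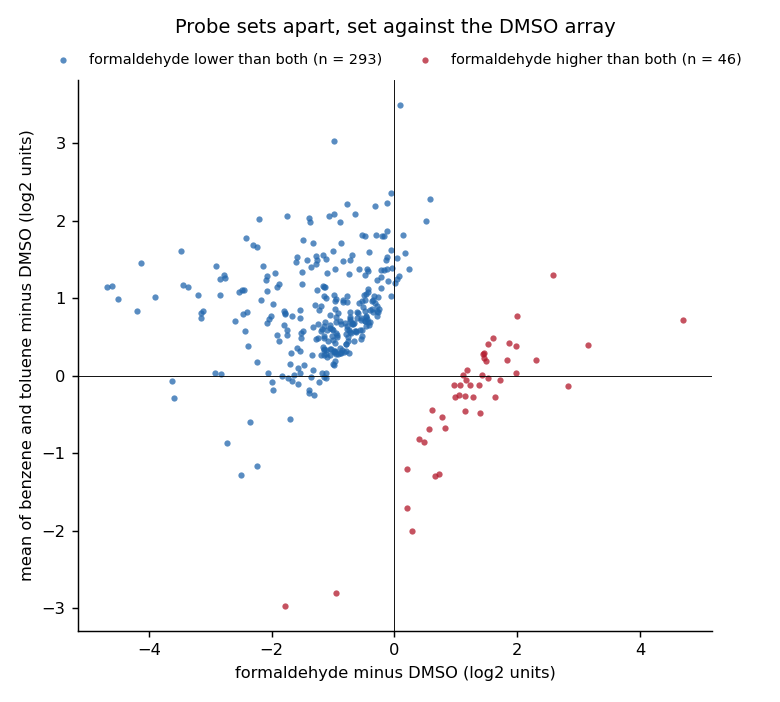
Each point is a probe set apart, with formaldehyde minus DMSO on the horizontal axis and the mean of benzene and toluene minus DMSO on the vertical axis, in log2 units. Most of the 293 lower probe sets (blue) fill the upper left, where formaldehyde is below and the solvents above DMSO, while the 46 higher ones (red) lie mostly right of 0 with the solvents near DMSO.

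Among the 46 higher probe sets formaldehyde was at least 2-fold above DMSO on 31 and both solvents were 2-fold below DMSO on 7, with no probe set in both groups. DMSO was nearer to the solvents on 36 of the 46 and on 183 of the 293.

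The BTF mix array held the highest of the 5 values on 264 of the 293 lower probe sets, or 90.1%, and the lowest on 11. Over all 9716 probe sets the mix was highest on 41.1% and lowest on 49.8%, since that array differed widely from all others, and its value also entered the level filter. Of the 293, 33 passed that filter only through the DMSO or mix value, among them cldn23.1, arpc5a, jun and ass1. The formaldehyde value was under the filter level on 173 of the 293. On the 46 higher probe sets the mix was highest on 20, or 43.5%. All 14 lower protease genes and all 19 lower skin genes had their highest level with the mix, which also contained formaldehyde. A highest level there was not particular to the lower genes. The hepatocyte and fast muscle markers, whose medians were higher with formaldehyde than with both solvents, also had their highest medians with the mix, 12.79 and 13.96. The oocyte markers had a median of 6.14 with the mix, against 12.40 to 12.90 on the other arrays. The part of cell mixture in the mix levels was not tested.

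The cell types behind the RNA were described by markers. All acinar markers and nearly all keratinocyte markers are themselves among the lower members. Their medians repeat the contrast that chose the members and add no separate support. The 9 acinar markers had a median level of 13.02 with benzene, 12.49 with toluene, 8.03 with formaldehyde, 11.49 with DMSO and 13.73 with the mix, and the 10 keratinocyte markers 10.79, 10.85, 7.52, 9.36 and 12.65. The 10 hepatocyte markers went the other way, with 10.12, 9.80, 10.87, 9.86 and 12.79, as did the 10 fast muscle markers, with 11.99, 12.23, 13.03, 11.49 and 13.96. The 7 oocyte markers had 12.40, 12.56 and 12.57 with benzene, toluene and formaldehyde, 12.90 with DMSO and 6.14 with the mix. The part of cell mixture in any gene's difference was not tested.

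Some array quality controls were close on these arrays. The 3′ minus 5′ signal of the actin control was 5.63 (benzene), 5.77 (toluene) and 5.73 (formaldehyde), and that of the GAPDH control 0.53, 0.58 and 0.43. On the mix array the actin signal was 3.40, against 6.02 with DMSO. The spike control r2-Bs-dap had 3′ levels of 9.19, 8.76 and 9.29 with benzene, toluene and formaldehyde, and 5′ levels of 7.62, 7.10 and 6.51. On r2-Bs-thr they were 8.03, 7.68 and 8.41, and 6.22, 6.09 and 5.90. On both, formaldehyde was the highest of these arrays at the 3′ end and the lowest at the 5′ end. On the r2-Bs-lys and r2-Bs-phe spikes it was the highest at both ends. Of 18 probe sets for hybridisation spikes, formaldehyde was above both solvents on 17, by at most 0.40. The part of these control differences in the counts was not tested.

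The threshold itself divided near-equal values. Just inside it on the lower side were scinla at -1.0005, nqo1 at -1.0013 and lgals3b at -1.0043, and just outside hmgn6 at -0.9958 and tsc1a at -0.99. On the higher side crygm2c and pklr at 1.01 and strbp at 1.02 were just inside, and atp2a1l at 0.99, serpinc1 at 0.98 and p4ha1b at 0.97 just outside. Of 36 lower genes with several probe sets past the filter, all probe sets were apart for 18, and 2 genes had a probe set of opposite sign. Of 4 higher genes with several probe sets, none had all of them apart, and 1 had a probe set of opposite sign.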

How the data were processed

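The authors deposited log2 values for each probe set of each array, the log base being inferred from their range. Affymetrix Expression Console 1.1, RMA and MAS5 are named per the submitters' processing notes, without saying which made the values. Where RMA was used, it gives the probes of all arrays 1 distribution, so a shift of most genes in 1 direction would be largely removed. The medians of the probe set values still differed slightly, with 7.06 for benzene, 7.06 for toluene, 6.98 for formaldehyde, 7.02 for DMSO and 6.99 for the mix. With the arrays centred on their medians 276 probe sets were lower and 50 higher. Here 115 control probe sets were left out. Of 15502 others, the platform annotation gave 10795 a single symbol, 135 more than 1 and 4572 no symbol; 10711 were updated by Entrez identifier through RefSeq (GRCz12tu). A gene was represented by its probe set of highest mean among those past the filter.

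Distances and medians were computed with numpy and pandas, normalization alternatives with limma 3.58.1. Arrays were grouped by the labelled treatment. Level filters, thresholds, the distance to the solvents' mean, quantile and cyclic loess normalization, median centring and other gene summaries were tried as alternatives. The members and the 44 gene lists were chosen with earlier results of these data known. Named genes were the 15 usual names farthest on each side, up to 5 apart per list, the clearance list and the 3 on either side of each threshold. A usual name is one that is no clone or locus identifier. Not all are reported here, other list members are added for contrast, and genes picked after their values were seen are said to be so. The steps were tested on simulated data. The number of arrays limits the precision, and no test was possible.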

Additional observations from a re-analysis of the deposited data

Results flagged for a closer look

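On 38 of 9716 probe sets formaldehyde lay 2-fold or more under DMSO while benzene and toluene each lay 2-fold or more over it. This difference was not tested. They covered 32 genes, among them ctrb.1, cpa5, ela2, krt91, cldni, aqp3a, cfd, muc5.1 and sparc. The reverse pattern, higher with formaldehyde and lower with both solvents, was met by 0 probe sets, again with no test. Either pattern needs formaldehyde at least 2 log2 units from both solvents. Only 90 lower and 3 higher probe sets had that distance, so the 2 counts largely repeat the contrast that chose the members. All of these comparisons share the DMSO array.

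The array's control probe sets for GAPDH, which the platform annotation pairs with gapdhs, were outside the counts and were also apart: formaldehyde lay below the nearer solvent by -1.26 on the 3′ probe set, -1.20 on the middle one and -1.11 on the 5′ one. The levels on the 3′ probe set were 9.16 with DMSO, 10.02 with benzene, 9.95 with toluene, 8.68 with formaldehyde and 12.87 with the mix. These were the only 3 of 115 control probe sets apart in either direction. The gene gapdh lay between the solvents.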

How the results depend on the processing

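No paired analysis was possible because each condition has 1 array and every label carries replicate number 1. With 1 array for each condition, no result can be set against a spread between replicates, and the detection of dim probe sets is unknown since the table holds no detection calls. The count of 293 lower probe sets was 548 at 1.5-fold, 90 at 4-fold and 217 as genes, and between 260 and 357 under the other filters, normalizations and distance tried. The count of 46 higher ones was 214 at 1.5-fold, 3 at 4-fold, 106 by the distance to the solvents' mean, 29 with the filter at the 75th percentile and 24 as genes, and between 40 and 53 otherwise. DMSO was nearer the solvents on 183 lower probe sets and within 0.5 of their range on 109. The class I list median, -0.33, had the opposite sign as formaldehyde minus benzene, 0.0311, and the cause was not tested. Of 21 list medians recomputed, this was the 1 that changed sign. With no level filter 8 moved by more than the typical difference of the solvents, among them islet hormones from -0.60 to -0.07, heart from -0.85 to -0.17, collagen from -0.38 to -0.13, interferon response from -0.35 to -0.15, oestrogen-induced proteins from -1.07 to -0.62 and macrophages from -0.84 to -0.55. Against benzene alone intestine went from -1.03 to -0.57, and against toluene alone class I went to -0.91 and interferon response to -0.10. Of 101 named genes, 91 stayed past the threshold under another normalization or with the mean of their probe sets; jun, lgals3b, lgmn, mmp2, nqo1, pklr, postnb, scinla, strbp and tnnc2.2 did not in at least 1 setting, and 0 changed sign. The alternatives for named genes, for the rule turned to benzene or toluene and for the level filter behind the place of DMSO were chosen after seeing the data.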
